A study of Mus musculus with 8 samples.

Results

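Peaks of Flag-tagged MBD5 and MBD6 that begin inside exceptionally long coding exons were described in mouse embryonic stem (mES) cells. A coding segment is the protein-coding part of an exon. A peak was taken when the position 15 nt inside its 5′ end lay, on the same strand, in a single coding segment of at least 1000 bp of a protein-coding transcript in GENCODE release M21 (build mm10). By this rule 2198 of 29555 peaks were found, 401 and 403 of them from the 2 libraries of Flag-MBD5, 681 and 713 from the 2 of Flag-MBD6. They lay in 503 long segments of 471 genes. The comparison is with coding segments under 300 bp of the same genes, which held 2407 peaks.

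CLIP-seq crosslinks a protein to the RNA it touches, pulls the protein down and sequences the attached RNA. The mES cells carried, as a stable overexpression, either human MBD5 or human MBD6 with a Flag tag (coding sequence only), so none of the libraries reports the endogenous mouse proteins. Both proteins carry a methyl-CpG-binding domain and partner with the PR-DUB complex, which removes ubiquitin from histone H2A, and the study asked which RNAs each one binds. The series holds 8 samples in 4 groups of 2, namely a Flag-MBD5 CLIP, a Flag-MBD6 CLIP and an input for each, of which the 4 CLIP samples are analysed here. The sample characteristics and the study's methods name a Flag antibody, whereas the extraction protocol names one against MBD6.

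Most coding exons of mammals are short and are separated by introns that are much longer. Exceptionally long coding exons are found in genes for giant scaffold proteins, in chromatin regulators and in zinc finger genes, where the whole array of fingers is often encoded by the last exon. A read of spliced RNA that spans an exon junction has no place in an unspliced alignment to the genome, so a long exon is also the place where coding RNA is seen with few edges.

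Libraries of one protein were close to each other. At sites in long segments with at least 20 reads, replicates scaled to equal totals gave a chi-square over degrees of freedom of 0.584 for Flag-MBD5 (196 sites) and 0.497 for Flag-MBD6 (108 sites). Between libraries of different proteins it was 2.69 to 2.91, by another rule, at shared sites where the pair's mean was at least 40 summit reads. At these sites the replicates thus differed by less than the sampling noise, but sites that a replicate did not call were left out. The replicates were counted as 1 sample of each protein, so that no test between the proteins is given. The intervals below cover counting error only. Reads were estimated at 478790 and 500143 in the Flag-MBD5 libraries, against 983918 and 1111742 in those of Flag-MBD6, and the deeper Flag-MBD6 libraries had more peaks.

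The strongest sites show what these peaks look like. For 7 of the sites that all 4 libraries shared and that ranked highest by fold enrichment, 60 nt are printed from the GENCODE transcripts. They begin at the 5′ end of the site's peak with the highest fold enrichment in any library. The distances of sites into their segments are those of the same peak. In Golgb1 it began 3603 nt into the segment, in the first Flag-MBD6 library, and the widest peaks of the other libraries began at 3851, 3862 and 3142 nt. In-frame GAA and GAG codons are in capitals because these codons were more frequent under the peaks than in the segments as a whole.
Rbbp6, chr7:123001715-123001774, + strand: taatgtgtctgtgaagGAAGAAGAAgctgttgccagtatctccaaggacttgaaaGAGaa
Akap12, chr10:4353146-4353205, + strand: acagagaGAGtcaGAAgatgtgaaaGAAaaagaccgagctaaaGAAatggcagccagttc
Golgb1, chr16:36915475-36915534, + strand: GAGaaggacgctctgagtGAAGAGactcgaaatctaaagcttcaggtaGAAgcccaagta
Rest, chr5:77280809-77280868, + strand: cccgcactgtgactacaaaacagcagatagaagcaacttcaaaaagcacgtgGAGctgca
Peg3, chr7:6707860-6707919, − strand: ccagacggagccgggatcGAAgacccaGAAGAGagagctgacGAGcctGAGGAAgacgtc
Ankrd11, chr8:122894333-122894392, − strand: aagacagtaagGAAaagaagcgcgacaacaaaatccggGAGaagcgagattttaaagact
Kat6a, chr8:22938101-22938160, + strand: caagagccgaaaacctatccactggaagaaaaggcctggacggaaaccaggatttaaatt
Each of these 7 windows follows a G in the transcript. RNase T1, with which the RNA was trimmed, cleaves after G. The Peg3 window held 6 GAA or GAG codons among its 20 codons and the Rest window 1 among 19. The Kat6a window held 0, as did the windows of the best shared sites of Mki67 and Srrm2. Windows of Taf7, Cebpz and the second Ankrd11 site are not printed. The Cebpz window had 33.3% A and 2 GAA or GAG codons among 19. That of the second Ankrd11 site had 18.3% A and 1 among 19.

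The highest-ranking site lay in the last exon of Rbbp6, which encodes a ubiquitin ligase that binds the retinoblastoma protein. Its 5′ end was 1131 nt into a coding segment of 1558 bp (exon 18 of 18). Flag-MBD5 gave 79 and 80 summit reads there, Flag-MBD6 144 and 170, with a fold enrichment over local background of 57.0, 56.7, 58.6 and 81.7. The Akap12 site began 4 nt into a coding segment of 4787 bp, in the gene of a scaffold for protein kinase A. It was 1 peak of 2337, 2370, 2405 and 2396 bp in the 4 libraries, with 232, 228, 284 and 287 reads at its summit. The largest width of all peaks in long segments, 2412 bp, was also close to this size.

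Regulators of transcription held several of the other leading sites. In Rest, the repressor of neuronal genes, the site began 106 nt into the 2279 bp segment of the last exon, and it had 61, 69, 98 and 115 summit reads. In Kat6a, a histone acetyltransferase, it began 112 nt into a last segment of 2651 bp, with 63, 61, 119 and 128 summit reads. In Peg3, an imprinted zinc finger gene, the site lay near the other end of the exon, 3812 nt into 4223 bp, with 61, 49, 89 and 98 summit reads. Cebpz, which acts in ribosome biogenesis, had its site 49 nt into an internal segment of 1493 bp and 48, 57, 96 and 101 summit reads. Taf7, a subunit of the general transcription factor TFIID whose whole coding sequence lies in 1 segment of 1023 bp, had 57, 64, 105 and 110. In each of these 5 genes both Flag-MBD6 libraries had more summit reads than both Flag-MBD5 libraries, as they did over all reads.

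Ankrd11, a chromatin co-regulator, had both of its leading sites in 1 internal segment of 6518 bp. The site at chr8:122893043-122894396 had 127 and 128 summit reads with Flag-MBD5 and 196 and 211 with Flag-MBD6, and was 1341 to 1354 bp wide. The next site upstream, at chr8:122894498-122895304, had 113, 111, 193 and 186. In Golgb1, which encodes the Golgi protein giantin, the leading site lay in a segment of 5129 bp, and its peak was 1354 and 1356 bp wide with Flag-MBD5 and 1582 and 2075 bp wide with Flag-MBD6.

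Merging the peaks of the 4 libraries that begin in long segments gave 874 sites. A peak that covers such a site but begins outside the long segment was not counted. Of these, 234 sites (26.8%) were found in all 4 libraries, 139 in 3, 235 in 2 and 266 in 1. Both Flag-MBD6 libraries and no Flag-MBD5 library had 194 sites, whereas 12 sites were found in both Flag-MBD5 libraries and in neither Flag-MBD6 library. Of those 12, a site in Tet1, the gene of a methylcytosine dioxygenase, had the highest fold enrichment, at 22.0 and 30.4 with 47 and 64 summit reads. It began 37 nt into the first coding segment, so a Flag-MBD6 peak that begins before that segment would be missed here. The other sites of this group, which include sites in Plec, Map1b, Spen, Fat1 and Dsp, had 7 to 24 summit reads. The difference in depth between the proteins enters these counts, and its part was not tested. Neither count was made over short segments or over all peaks, so whether it is particular to long segments was not tested. Peak by peak, the shares were close. A Flag-MBD5 peak overlapped 58.0% and 55.0% of the Flag-MBD6 peaks in long and 58.2% and 57.0% in short segments. A Flag-MBD6 peak overlapped 91.0% and 89.3% of the Flag-MBD5 peaks in long and 90.2% and 87.9% in short segments.

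**Figure D1:**
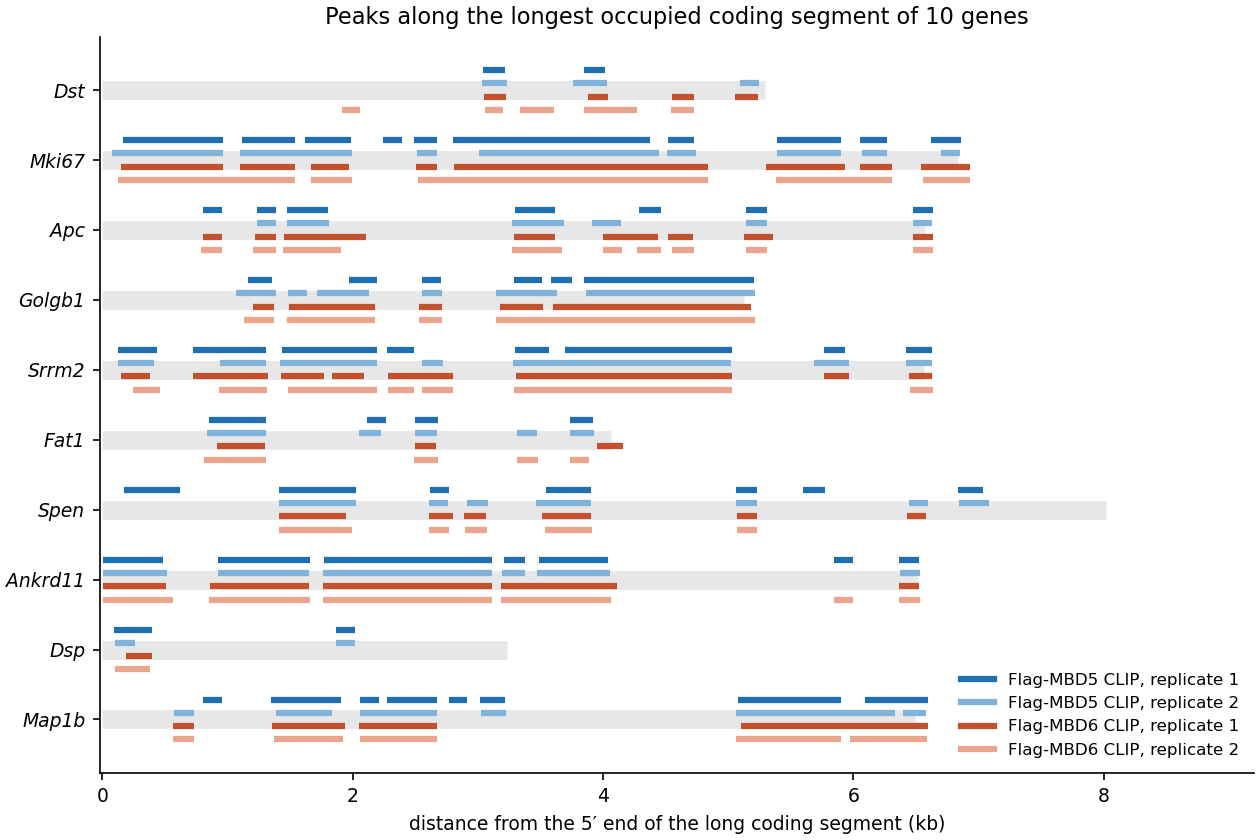
Peaks along the longest occupied coding segment of the 10 genes with the most such peaks. The x axis is the distance from the segment's 5′ end in kb, each grey band is the segment, and each coloured bar is the full extent of 1 peak in 1 library, which can run past the segment's end. The peaks of Mki67, Ankrd11 and Srrm2 cover more than 50% of the segment in each library, and those of Dsp cover less than 15%.

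The peaks were spread over many genes, with a few large contributors. The 10 genes with the most peaks in long segments held 279 of the 2198 (12.7%), and 168 genes had such a peak in all 4 libraries. Dst, which encodes the spectraplakin dystonin, had 7, 9, 8 and 10 peaks in 12659 bp of long segments. Mki67, whose protein coats mitotic chromosomes, had 10, 8, 8 and 5 in 6836 bp. In the 4 libraries 67.8%, 65.2%, 72.3% and 77.0% of the Mki67 segment lay under a peak, and the widest peak was 1576, 1440, 2030 and 2322 bp. The library with the fewest peaks in this exon, the second of Flag-MBD6, thus had the widest peak and the largest share under peaks.

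The other genes at the top included Srrm2, a component of nuclear speckles, with 8, 7, 8 and 7 peaks that covered 55.0% to 60.8% of a segment of 6569 bp. Ankrd11 had 7, 6, 5 and 6 peaks over 53.6% to 59.8% of its segment. Golgb1 had 43.5% and 54.5% of its longest segment under peaks with Flag-MBD5, and 56.7% and 60.7% with Flag-MBD6. Map1b, which binds microtubules, had 8, 6, 4 and 5 peaks, but the share of its 6490 bp segment under them was nearly the same in the 4 libraries, between 41.4% and 43.6%. Spen, an RNA-binding co-repressor that acts in X inactivation, went the other way, with 26.5% and 24.2% of its 8020 bp under Flag-MBD5 peaks and 19.9% and 18.1% under Flag-MBD6 peaks. Apc, the tumour suppressor that restrains Wnt signalling, had 21.2% and 21.3% of a 6574 bp segment under Flag-MBD5 peaks and 34.5% and 30.2% under Flag-MBD6 peaks. Fat1, an atypical cadherin, had 4, 5, 3 and 4 peaks in its longest occupied segment, and 16.3% to 28.9% of it lay under them. In Dsp, the gene of desmoplakin, 2, 2, 1 and 1 peaks lay in the segment of 3234 bp.

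By peaks per kb, averaged over the libraries, the densest segments of at least 3000 bp were in Rif1, Atrx and Plec. Rif1, a regulator of replication timing and of double-strand break repair, had 3, 2, 6 and 6 peaks in 3090 bp, a mean of 1.38 per kb. Atrx, a chromatin remodeller, had 4, 4, 3 and 4 peaks in 3014 bp, or 1.24 per kb. Plec, a linker of the cytoskeleton, had 5, 5, 4 and 2 peaks in 3381 bp, or 1.18 per kb. The remaining segments of this group were those of Srrm2 (1.14 per kb), Apc (1.14), Mki67 (1.13), Golga4 (1.07), Golgb1 (1.02), Fat1 (0.98) and Ankrd11 (0.92).

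Peaks in long segments made up a smaller share of the coding peaks than long segments made up of the coding sequence. Of 4186, 4232, 7316 and 7601 coding peaks, 9.58% (95% Wilson interval 8.72 to 10.5), 9.52% (8.67 to 10.4), 9.31% (8.66 to 10.0) and 9.38% (8.75 to 10.1) began in a long segment. The 4 shares lie within each other's intervals. In the 3790 genes with a coding peak, 15.0% of the coding length was in long segments, above the upper bound of all 4 intervals.

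Summed over the same genes, peak starts were sparser in long than in short segments. Peaks and lengths were added up over the genes before dividing. The ratio is thus pooled and is not a ratio within each gene, and genes with many peaks weigh more in it. There were 532 genes with both kinds of segment and a peak in either, and together they had 1297 kb of long and 1141 kb of short segments. Long segments had 0.280 peaks per kb in each Flag-MBD5 library, and 0.475 and 0.497 with Flag-MBD6. Short segments had 0.384, 0.376, 0.661 and 0.689 peaks per kb. The ratio of long to short was 0.729 (95% exact interval 0.633 to 0.840), 0.745 (0.646 to 0.858), 0.719 (0.645 to 0.801) and 0.721 (0.649 to 0.801). In each library the interval lay below 1. The ratios of the proteins differed by a log2 value of -0.034 (Flag-MBD6 minus Flag-MBD5, 95% counting interval -0.29 to 0.22), with -0.021 and -0.046 within replicate numbers 1 and 2, and each protein's ratio lay within the intervals of the other.

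**Figure D2:**
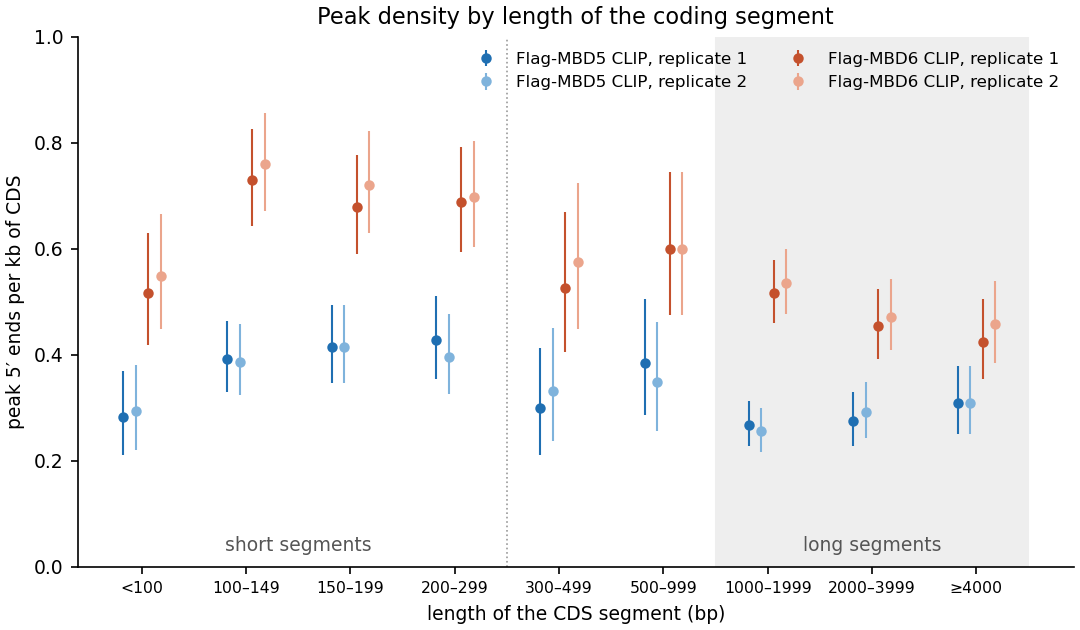
Peak 5′ ends per kb of coding sequence (y axis) against the length of the coding segment in bp (x axis, unequal bins), for each CLIP library in the 532 genes with long and short segments. Points are values of single libraries and bars are 95% Poisson intervals. The segments of 100 to 300 bp lie above those of 1000 bp and more in all 4 libraries.

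Across segment lengths, density was higher from 100 to 300 bp than from 1000 bp up. In the first Flag-MBD5 library it was 0.393, 0.415 and 0.427 per kb in segments of 100 to 150, 150 to 200 and 200 to 300 bp (upper bound not included). It was 0.268, 0.275 and 0.309 per kb in segments of 1000 to 2000, 2000 to 4000 and at least 4000 bp. In the second Flag-MBD6 library the same bins gave 0.759, 0.721 and 0.698, then 0.535, 0.472 and 0.457. Segments under 100 bp had 0.282 and 0.293 per kb with Flag-MBD5 and 0.517 and 0.549 with Flag-MBD6. Over the length where a 30-nt read fits these became 0.478, 0.478, 0.836 and 0.900, within the range of the bins from 100 to 300 bp, while segments of at least 4000 bp had 0.311, 0.311, 0.427 and 0.460 by the same measure. Among the long bins, the Flag-MBD5 values were highest and the Flag-MBD6 values lowest in the segments of at least 4000 bp, but the intervals of the longest and the shortest of these bins overlap in each library.

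The ratio turned on how a peak was placed. A read needs its whole length inside an exon to align without splicing. With 30 nt taken off every segment and only the peaks that begin at least 30 nt before its end, the ratio was 0.585, 0.606, 0.588 and 0.591. With peaks placed at their summit it was 0.994, 0.995, 0.983 and 0.971, and with peaks placed at their midpoint it was 1.10, 1.14, 1.12 and 1.11, all with intervals that include 1. The peaks behind this change were those of the short segments: 70.8% to 72.5% of them had the summit and 61.1% to 62.8% the midpoint inside the segment they began in, against 98.3% to 99.0% and 98.2% to 98.8% of the peaks in long segments. Since MACS2 extended each read to 150 bp, a peak that begins in a short exon can run past its end.

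**Figure D3:**
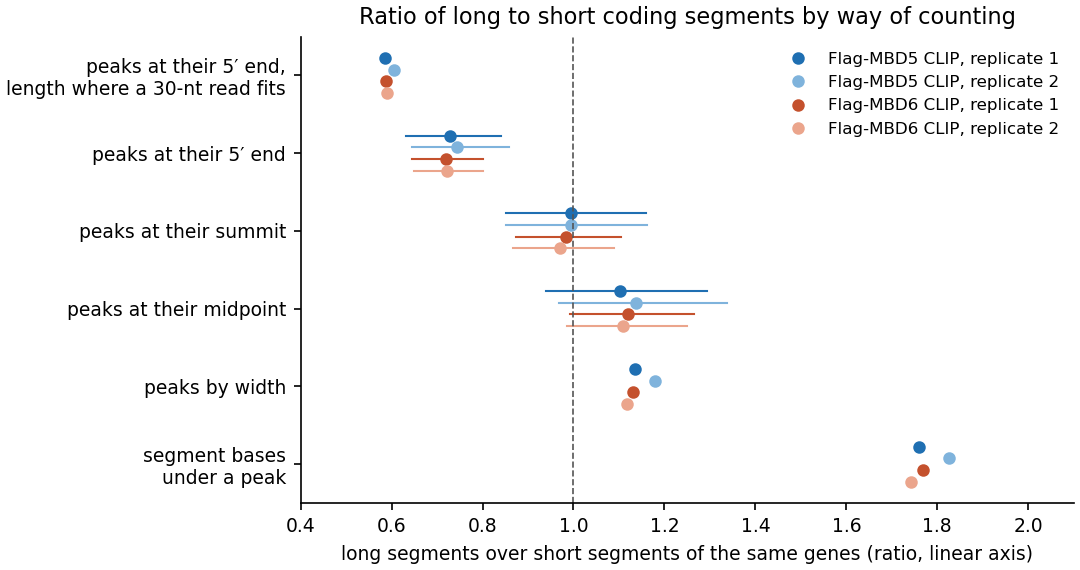
Ratio of long to short coding segments of the same genes (x axis, linear) for 6 ways of counting (y axis), with 1 point per CLIP library. Bars, where drawn, are 95% exact intervals from the counts of peaks, and the dashed line marks a ratio of 1. Ratios of peak starts lie between 0.585 and 0.745, and ratios of bases under peaks between 1.74 and 1.83.

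By bases, long segments were covered more than short ones. In the 532 genes, 7.46%, 7.71%, 13.2% and 13.7% of the bases of long segments lay under a peak, against 4.24%, 4.22%, 7.45% and 7.84% of the bases of short segments. These are 1.76, 1.83, 1.77 and 1.74 times as much. Long segments thus had fewer peak starts per kb and more bases under peaks in each of the 4 libraries. The short segments had a median length of 127 bp, below the 150 bp to which reads were extended. Bases of a peak past the end of its segment were not counted, so the segment's length enters this ratio by construction. Its part was not tested.

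Peaks in long segments were wider than peaks in short ones. Of the peaks in long segments, 26.4%, 26.6%, 28.2% and 27.2% were wider than 300 bp, against 1.60%, 1.86%, 2.39% and 2.54% of the peaks in short segments. The median width was 187, 187, 196 and 191 bp in long segments and 160, 161, 164 and 165 bp in short ones. The widest peak that began in a short segment was 449 to 696 bp, depending on the library. A short segment limits how far apart whole reads of spliced RNA can begin, so the exon's length enters the difference in width by construction.

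**Figure D4:**
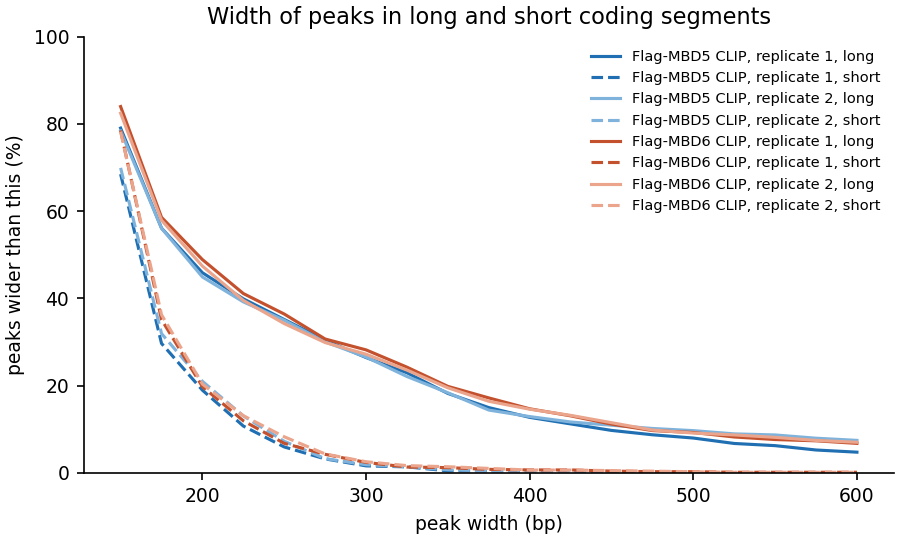
Share of peaks (y axis, %) wider than a given width (x axis, bp) for each CLIP library, with long segments as solid lines and short segments of genes that also have a long one as dashed lines. The solid lines of the 4 libraries nearly coincide, with 26.4% to 28.2% of peaks wider than 300 bp.

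Many long segments held 1 peak and a few held series of them. Of the 242, 248, 412 and 428 long segments with a peak, 159, 165, 249 and 255 had 1, and 16, 16, 25 and 27 had 4 or more. The most in 1 segment was 10, 8, 8 and 9. The median distance between the 5′ ends of neighbouring peaks in a segment was 666, 726, 666 and 668 nt. The smallest distance was 215 to 218 nt, since closer peaks are joined into 1 by the peak calling.

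Gene by gene, a difference in density between long and short segments was rarely called. An exact binomial test was made for each gene and library with the gene's own lengths, and p-values were Benjamini-Hochberg adjusted over the 298, 289, 459 and 474 genes tested. Fewer peaks in long segments were called for 1 gene in the first Flag-MBD5 library (0.336% of the genes tested) and for 0 genes (0.0%) in each of the other libraries. More peaks in long segments were called for 0 genes (0.0%) in each library. At an unadjusted p under 0.05, 5, 6, 7 and 8 genes had fewer and 0, 0, 2 and 2 genes had more peaks in long segments. Of the genes tested, 106, 92, 179 and 178 had peaks in long segments alone, and 100, 95, 120 and 123 in short segments alone. The lower pooled density of long segments was thus not seen as a majority of genes with short-segment peaks alone. The median gene had 2 peaks in these segments, which leaves little to test in most genes.

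The gene called was Macf1, a spectraplakin that links actin to microtubules. It had 1 peak in 10073 bp of long and 22 in 14308 bp of short segments in the first Flag-MBD5 library, where 9.50 in long segments would follow from length (exact binomial test, adjusted p = 0.0427). The counts were 1 and 21 in the second Flag-MBD5 library (adjusted p = 0.0744), 2 and 19 in the first Flag-MBD6 library (adjusted p = 0.447) and 4 and 21 in the second (adjusted p = 1.0), all by the same exact test. Macf1 had fewer peaks in long segments than its lengths would give in both libraries of each protein, which count as 1 sample. The expected counts take all annotated segments of the gene as transcribed. The long segments include 3270 bp of a transcript with 6 coding segments, where no library had a peak. Which Macf1 transcripts these cells make was not tested.

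Dst, the relative of Macf1, had 26, 27, 30 and 32 peaks in 14667 bp of short segments beside its 7, 9, 8 and 10 in long ones. This is a mean of 0.67 per kb in long and 1.96 per kb in short segments, with unadjusted exact p of 0.00449, 0.0115, 0.00171 and 0.00313 and adjusted p of 0.391 or more. Srrm2 was also denser in short segments, at 4.71 against 1.14 per kb, as were Mki67 (2.77 against 1.13), Fat1 (1.65 against 0.95) and Spen (1.25 against 0.78). Golgb1 was denser in long segments, at 1.07 against 0.22 per kb, as were Map1b (0.89 against 0.26), Apc (1.14 against 0.80), Ankrd11 (0.92 against 0.65) and Dsp (1.09 against 0.88). The 10 genes with most peaks in long segments, which were chosen on the long count, thus fell into 5 with the higher mean density in short and 5 with the higher mean density in long segments.

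Some long segments held no peak although the same gene had peaks in short segments. There were 62 such segments in genes with a short-segment peak in all 4 libraries. The longest was 4698 bp of Ice1, a subunit of the little elongation complex, which had 1, 1, 1 and 2 peaks in 1668 bp of short segments. Numa1, a spindle pole protein, had 3 peaks in short segments in each library and none in its long segment of 3360 bp. In Macf1 the first coding segment of a transcript with 6 coding segments, 3270 bp long, held no peak. The others were a 2583 bp segment of Tnrc6a, which acts in microRNA silencing, and the last 2300 bp segment of the zinc finger gene Zfp715. The annotation lists every transcript, and which of them these cells make was not tested.

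Along the exon, the 5′ ends of peaks were denser near the start of the segment. The first 10% of the segment's length held 14.0%, 14.4%, 15.0% and 15.4% of the peaks, where an even spread gives 10%. The first 20% held 24.9% (95% Wilson interval 20.95 to 29.4), 24.3% (20.4 to 28.7), 27.2% (24.0 to 30.6) and 27.8% (24.6 to 31.2). The first 50% held 51.4% (46.5 to 56.2) and 51.9% (47.0 to 56.7) of the Flag-MBD5 peaks and 56.1% (52.3 to 59.8) and 55.3% (51.6 to 58.9) of the Flag-MBD6 peaks. For Flag-MBD5 the share of the first 50% could not be told from 50%. The excess also rested on placing peaks at their 5′ end. With peaks placed at their summit, the first 10% held 7.38% to 7.79% and the first 20% 18.5% to 22.3% of the peaks over the 4 libraries, and the first 50% held 46.7%, 46.6%, 50.4% and 50.9%.

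**Figure D5:**
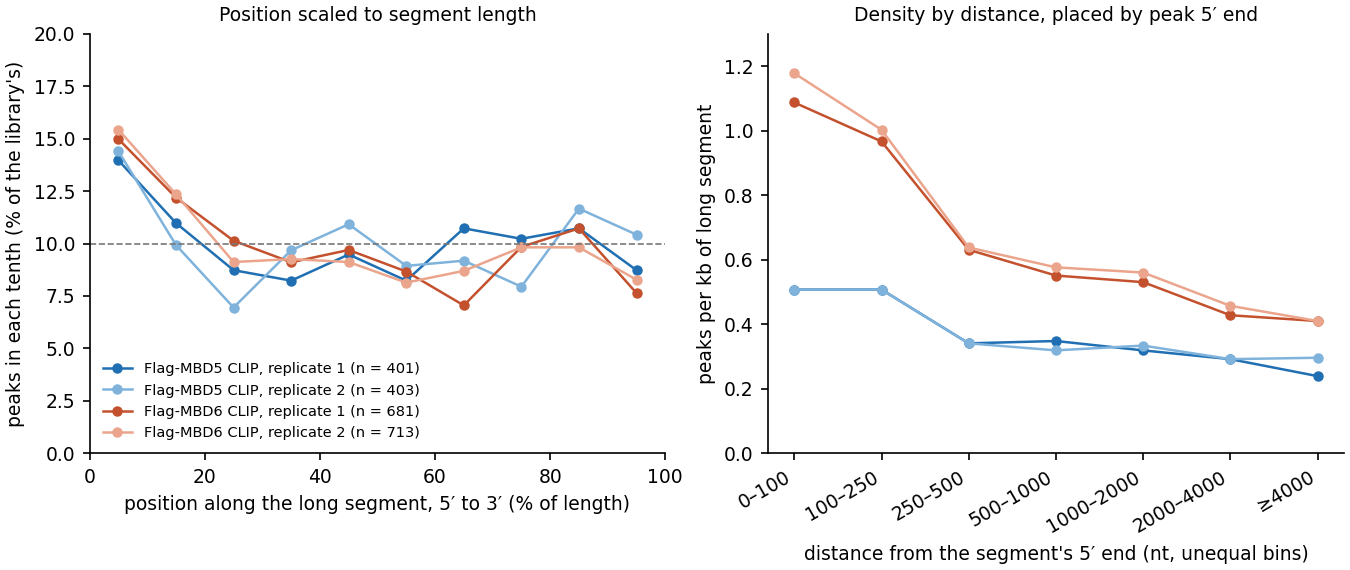
Left, share of peaks (y axis, % of the library's) in each 10% of the long segment from 5′ to 3′ (x axis, % of length), with the dashed line at an even spread. Right, peaks per kb of long segment (y axis) by distance of the peak from the segment's 5′ end (x axis, nt, unequal bins) in the long segments of genes with a peak in one, where the first 250 nt have the highest density in each of the 4 libraries, which are shown by colour in both panels.

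The same was seen in nucleotides. In the 552 long segments of genes with such a peak, the first 100 nt had 0.507 peaks per kb in each Flag-MBD5 library (95% Poisson interval 0.337 to 0.733), and 1.09 (0.829 to 1.4) and 1.18 (0.909 to 1.5) with Flag-MBD6. Between 1000 and 2000 nt the values were 0.319, 0.334, 0.530 and 0.560, and beyond 4000 nt they were 0.239, 0.296, 0.410 and 0.410. The last 100 nt of the segments had 0.254, 0.236, 0.326 and 0.417 per kb, but a read that begins close to the end would run past the exon. Between 100 and 250 nt before the end the density was 0.411, 0.543, 0.628 and 0.688 per kb, and for Flag-MBD5 the intervals there, 0.284 to 0.574 and 0.396 to 0.727, overlap those of the first 100 nt. For Flag-MBD6 the intervals of the first 100 nt lie above those of 1000 to 2000 nt, 0.455 to 0.614 and 0.483 to 0.646, and for Flag-MBD5 they overlap them.

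The share in the first 20%, by 5′ ends, is given by the place of the segment in the coding sequence. In last coding segments it was 28.4%, 33.3%, 33.5% and 36.5%, over 88, 84, 179 and 189 peaks. In internal segments, over 243, 243, 371 and 383 peaks, it was 24.3%, 22.2%, 28.0% and 27.7%. In first segments it was 23.3%, 21.9%, 17.5% and 15.6%, over 30 to 64 peaks, and in segments that hold the whole coding sequence it was 22.2%, 20.5%, 14.8% and 16.4%. The 95% Wilson intervals of these kinds overlap one another in both Flag-MBD5 libraries. In the second Flag-MBD6 library that of last segments (30.0 to 43.6) lies above those of first segments (8.71 to 26.4) and of whole coding sequences (9.43 to 27.1), and in the first library it lies above that of whole coding sequences alone. The differences between the kinds were not tested.

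Zinc finger genes of the C2H2 class, many of which bind DNA through arrays of repeated fingers, were looked at apart from the rest. They were picked by gene symbol alone, through prefixes such as Zfp, Zscan and Zbtb and a list of names such as Rest. Their domains were not checked, and the zinc finger gene Peg3 falls among the other genes. In their last segments 24 of 43 peaks (55.8%, 95% Wilson interval 41.1 to 69.6) and 25 of 42 (59.5%, 44.5 to 73.0) of the Flag-MBD6 libraries lay in the first 20%. In the Flag-MBD5 libraries it was 4 of 11 and 6 of 14. In last segments of other genes the share was 27.3%, 31.4%, 26.5% and 29.9%, which for Flag-MBD6 is close to the 28.0% and 27.7% of internal segments. With peaks placed at their midpoint, 20 of 42 (47.6%) and 21 of 42 (50.0%) of the Flag-MBD6 peaks in last segments of zinc finger genes still lay in the first 20%. By 5′ ends, the 2 Flag-MBD6 intervals of the zinc finger genes do not overlap those of the other genes, 19.8 to 34.5 and 23.1 to 37.8. The authors kept reads with up to 10 alignments, and zinc finger exons are repetitive between genes, so which copy a read came from is uncertain in them, and its part was not tested.

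Signal over background was slightly lower in long segments. The median fold enrichment was 9.57, 9.91, 10.6 and 10.6 in long and 10.1, 10.3, 11.2 and 11.3 in short segments. The median number of summit reads was 16, 16, 20 and 21 in long and 14, 15, 19 and 21 in short segments. The local background rate was higher in long segments, with medians of 0.453, 0.428, 0.659 and 0.738 expected reads at the summit against 0.308, 0.312, 0.611 and 0.690. It was at the library's lowest rate for 29.4%, 28.5%, 46.4% and 46.0% of the peaks in long segments and for 46.6%, 49.4%, 64.6% and 64.4% of those in short segments. With each peak weighted by its summit reads, the density ratio of long to short segments was 0.903, 0.907, 0.852 and 0.837.

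Peaks of the proteins overlapped each other in long exons about as often as in short exons. A peak of either Flag-MBD6 library overlapped 91.0% and 89.3% of the Flag-MBD5 peaks in long segments, and 90.2% and 87.9% of those in short segments. A Flag-MBD5 peak overlapped 58.0% and 55.0% of the Flag-MBD6 peaks in long segments, and 58.2% and 57.0% of those in short segments. Within each library the intervals of the long and short shares overlap. The other replicate held 74.8%, 71.0%, 84.3% and 79.5% of the peaks in long segments, and 72.4%, 74.1%, 84.7% and 81.3% of those in short segments. These shares are with the other replicate alone, while those above are with either library of the other protein, at another depth. They are thus not set against each other.

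The first 30 nt of the peaks were rich in A and poor in U beside their whole segments. The rest of each peak was not measured. Segment bases were not limited to places after a G, where RNase T1 cuts, and the part of this was not tested. In the first 30 nt, A made up 38.3%, 38.7%, 38.9% and 39.3% of the bases, against 30.2% to 30.5% of all bases of the same segments, each segment counted once per peak. T in the transcript sequence made up 14.4%, 14.0%, 14.7% and 14.5% in the windows and 19.4% to 20.4% in the segments. Among the in-frame codons, GAA and GAG (glutamate) made up 13.7%, 13.4%, 14.8% and 14.5% in the windows and 9.34% to 9.64% in the segments. AAA and AAG (lysine) made up 11.9%, 12.7%, 12.4% and 13.0% against 7.76% to 7.92%. Windows of peaks in short segments of the same genes had 37.7%, 38.7%, 39.5% and 39.4% A, against 32.7%, 32.8%, 33.8% and 33.8% in the segments they lay in. The windows of long and short segments were thus close in A, while the short segments with peaks were richer in A than the long ones. Whether the rise in A over the segment differed between them was not tested. Over all long and all short segments of the genes, with or without peaks, A made up 28.8% and 28.3%.

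G stood just before the 5′ end of 82.0%, 80.3%, 71.6% and 70.0% of the peaks in long segments, and C before 13.5%, 15.4%, 23.4% and 24.5%. The Flag-MBD5 shares of G, with intervals of 77.9 to 85.4 and 76.2 to 83.9, lay above those of Flag-MBD6, 68.1 to 74.9 and 66.5 to 73.2. In short segments G preceded 82.9%, 82.9%, 75.7% and 71.3% of the peaks, close to the values of the long segments.

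Gene lists were read against all 2954 gene symbols with a long segment, of which 471 (15.9%) had a peak in one. The lists were drawn up with earlier results of these data known. High shares in them may therefore come from that choice, whose part was not tested. RNA abundance differs between genes and was not measured in these files, so a gene's share of peaks and its expression cannot be told apart. Chromatin regulators had a peak in 26 of 30 genes (86.7%), with 0.324, 0.333, 0.441 and 0.504 peaks per kb of long segment against 0.071, 0.072, 0.121 and 0.127 over all genes. Besides Ankrd11 and Atrx they included Phf3 (2, 3, 5 and 6 peaks), which binds RNA polymerase II, and Setd2 (2, 2, 3 and 4), the histone H3K36 methyltransferase. Genes of genome maintenance and mitosis had a peak in 15 of 17 (88.2%), with Bod1l (3, 4, 2 and 2) and Cenpf (1, 1, 3 and 5), a kinetochore protein, after Mki67 and Rif1. Genes of RNA binding and splicing scaffolds had one in 12 of 17 (70.6%), with Prrc2c (4, 4, 3 and 3), Son (3 in each library), a speckle protein, and Scaf11 (1, 1, 3 and 3) after Srrm2.

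Cytoskeletal scaffolds and plakins had a peak in 14 of 26 genes (53.8%), among them Dst, Dsp, Map1b and Plec, while Ank2, Ank3 and Eppk1, with 6198, 7680 and 10374 bp of long segments, had 0. Ahnak, with the most long coding sequence of the list (16623 bp), had 2, 1, 2 and 4 peaks. The TET genes, which encode enzymes that oxidise methylcytosine, had 6, 5, 5 and 4 peaks in Tet1, 1, 2, 4 and 3 in Tet2 and 0 in Tet3. Of the PR-DUB genes and their partners, 3 of 6 had a peak, Asxl2 in 3 libraries and Hcfc1 and Mbd6 in 1 each, and Asxl1, Asxl3 and Mbd5 had 0.

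C2H2 zinc finger genes, picked by symbol, were near the share of all genes, at 66 of 380 (17.4%). With Flag-MBD5 they had 0.039 and 0.052 peaks per kb of long segment, below the 0.071 and 0.072 over all genes. With Flag-MBD6 they had 0.127 and 0.125, close to the 0.121 and 0.127 over all genes. Their peaks were 27, 36, 88 and 87, led by Zfp106, Zfp462 and Zfp318 with 16, 14 and 12 over the 4 libraries, and by Rest and Zfp57, which protects imprints, with 11 each. Genes with the whole coding sequence in 1 long segment had a peak in 68 of 977 (6.96%), at 0.024, 0.027, 0.044 and 0.049 per kb. Of 27 listed single-exon genes such as Jun, Irs1 and Hspa1a, 1 had a peak, Sox11, with 1, 1, 2 and 1. Chromosome M, where coding genes have no introns, held 20 of the 2198 peaks.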

How the data were processed

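The members and gene lists were chosen with earlier results of these data known. Per the study's methods, the authors filtered and clipped the reads, collapsed identical ones, kept those over 15 nt, removed ribosomal RNA, and aligned the rest to mm10 with Bowtie 1.0.0 without splicing, allowing up to 3 mismatches and 10 alignments. Strands were split with SAMtools 1.16.1 and peaks called per strand and library with MACS2 (reads extended to 150 bp, q under 0.01). The deposited columns give, for each peak, a score (10 times −log10 q as a whole number), a fold enrichment (a ratio to local background), −log10 p, −log10 q and another column with the summit's distance from the peak's start. Summit reads and the background rate were solved from the deposited fold and −log10 p, with a solution for 100% of peaks, and library totals were estimated from the lowest rate, so they are not counts of fragments. Coding segments came from GENCODE release M21 and sequences from its transcripts. Segments of a gene that overlap were merged within a class, and short segments that overlap a long one were dropped. Genes and sites named were the 10 genes with most peaks, the 10 best sites shared by 4 libraries, the 10 densest segments of at least 3000 bp, the 5 longest empty ones and up to 4 genes a list. Macf1 in the test per gene, the 12 sites counted for Flag-MBD5 alone and the genes without peaks were named after their values were seen. The test per gene and the solving of reads were tested on simulated data. The changed genes of that simulation had many more peaks than the median gene here, so it does not show what the test can find in most genes. Intervals are 95% Wilson, exact binomial or Poisson intervals. The alternatives covered placement, thresholds, segment classes, transcripts, gene sets and each library left out. The inputs were not used here. Python 3.11.15, SciPy 1.17.1 and pandas 2.3.3 were used.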

Additional observations from a re-analysis of the deposited data

How the results depend on the processing

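Under 22 settings, 77 of 118 recomputed levels, shares and ratios stayed within the counting interval of the value reported (for medians and base shares, within 1 SD of the libraries), and 10 of 12 counts of called genes stayed within 1.5 times. The settings "segment bases under a peak", "peaks by width", "at least 20 summit reads", "without chromosome M" and 2 on last segments were chosen after seeing the data. The density ratio of long to short segments turned from under to over 1 (Flag-MBD5, then Flag-MBD6) with peaks at their midpoint (1.12 and 1.11), by width (1.157 and 1.12) and by bases under a peak (1.79 and 1.76). It moved, staying under 1, at the summit (0.994 and 0.977), in the length where a read fits (0.595 and 0.590), over all genes with both kinds of segment (0.546 and 0.534) and by summit reads (0.905 and 0.844), and for 1 protein with at least 20 summit reads (0.895, Flag-MBD5) and with long segments from 2000 bp (0.619, Flag-MBD6). In the placements by summit and midpoint, the peaks in short segments whose summit or midpoint lies past the exon leave the count. The difference between the proteins in the log2 ratio (-0.034, interval -0.29 to 0.22) was -0.034 with a replicate block and ranged from -0.25 with at least 20 summit reads to 0.0080 for genes with a peak in a long segment, so that its sign was not fixed; it was -0.18 for internal segments and -0.16 from 2000 bp. Each library left out gave ratios of 0.728 to 0.743 and 0.718 to 0.727.

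The share of peaks in the first 50% of the segment was 46.7% and 50.7% at the summit, 46.2% and 50.7% at the midpoint, and 59.5% for Flag-MBD6 in last segments. The share of coding peaks in long segments was 12.7% and 12.8% at the summit, 13.8% and 13.6% at the midpoint, 5.30% and 4.77% from 2000 bp, 5.92% and 5.26% for internal segments, 8.55% for Flag-MBD5 at a fold of at least 10, and 8.36% for Flag-MBD6 without zinc finger genes. Overlap with the other protein was 77.4% and 50.3% at a reciprocal 50%, 47.5% for Flag-MBD6 at a fold of at least 10 and 60.2% from 2000 bp. It ranged from 86.3% to 91.0% (Flag-MBD5) and from 45.7% to 58.0% (Flag-MBD6) with each library left out. The test per gene called 0 genes in place of 1 in the first Flag-MBD5 library at the midpoint, and 1 in place of 0 in the second in the length where a read fits. A made up 39.6% and 38.4% of the windows at sites in all 4 libraries. In genes with long and short peaks in the same library the median fold was 10.3 and 11.7 and the background rate 0.503 and 0.995. The cause of these other changes was not tested. Peak lists hold no region below the calling threshold, so a segment without a peak is not a segment without reads.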
